A study of Homo sapiens with 6 samples.

Results

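Ubiquitin E3 ligases and the adaptor proteins that bring substrates to them were followed in the human line Kasumi-1, which comes from an acute myeloid leukaemia with the t(8;21) translocation. The genes were chosen by name alone: every protein-coding gene of the deposited table whose symbol begins with FBX, KLHL, TRIM, RNF, CUL and a digit, SOCS, BTBD, KCTD, MARCH, HECTD, HERC or DCAF. This took 147 of the 7983 listed genes, and 4 further genes with such a name were left out because they were not annotated as protein-coding. GENCODE release 29 annotates 356 protein-coding genes with these names, so 41.3% of them were in the table, and the others were not analysed here. Cells with a SETD8 knockout made with CRISPR/Cas9 (3 libraries) were compared with cells that carried the non-targeting guide sgNT and are labelled wild type (3 libraries, called controls). SETD8, now named KMT5A, encodes the enzyme that adds a single methyl group to lysine 20 of histone H4. The labels name no clone, guide sequence or separate culture for a library, so the p-values reflect only how far these 6 libraries scatter, which may be technical.

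Ubiquitin ligases transfer the small protein ubiquitin from a conjugating enzyme to a substrate, which can mark it for the proteasome or change its activity or location. Cullin-RING ligases are built from parts: a cullin scaffold holds a RING protein at one end and an exchangeable substrate adaptor at the other. CUL1 takes F-box proteins (FBX), CUL3 takes BTB-domain proteins, among them many KLHL, BTBD and KCTD proteins, CUL4 takes DCAF proteins through DDB1, and CUL2 and CUL5 take SOCS-box proteins. RNF, TRIM and MARCH proteins carry RING-type domains of their own, and HECTD and HERC proteins carry a HECT domain that accepts ubiquitin before passing it on. In blood cells such ligases set the level of cytokine receptors, cell-cycle regulators and innate immune sensors.

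The promoters of the TRIM genes were searched for a motif because several TRIM proteins are known interferon-induced antiviral factors. The letters searched, on both strands, were GAAANNGAAA, the core of the interferon-stimulated response element, in the 250 bases before and 50 bases after each RefSeq start (GRCh38.p14). Of the 147 genes, 114 had an entry, with 156 promoters. The motif was in 5 of the 23 promoters of TRIM genes (21.7%, 1 each for 5 of 19 genes), in 7 of the 156 (4.49%) and in 3.57% of all 35116 promoters of this length. The stretches below show the motif in capitals for the 4 TRIM genes where it lies before the start, all on the minus strand, at chr9:98119219-98119268, chr17:15683002-15683051, chr6:30213565-30213620 and chr11:5685072-5685121 in turn.
TRIM14: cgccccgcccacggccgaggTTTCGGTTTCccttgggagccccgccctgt
TRIM16: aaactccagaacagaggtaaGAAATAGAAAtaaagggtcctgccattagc
TRIM26: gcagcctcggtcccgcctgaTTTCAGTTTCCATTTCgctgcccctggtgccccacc
TRIM5: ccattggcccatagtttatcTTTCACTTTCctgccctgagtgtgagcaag
The first base of the match lay 26, 80, 194 and 27 bases before the start, and TRIM26 holds 2 overlapping matches. TRIM21 was the fifth, with its match after the start. A match is a description of the letters and not a binding site.

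KLHL13, the member with the largest difference, has 2 RefSeq starts, whose preceding 250 bases are shown with each CpG in capitals because the starts differ in how many they hold. They lie on the minus strand at chrX:117985330-117985579 and chrX:118116811-118117060.
KLHL13 inner start: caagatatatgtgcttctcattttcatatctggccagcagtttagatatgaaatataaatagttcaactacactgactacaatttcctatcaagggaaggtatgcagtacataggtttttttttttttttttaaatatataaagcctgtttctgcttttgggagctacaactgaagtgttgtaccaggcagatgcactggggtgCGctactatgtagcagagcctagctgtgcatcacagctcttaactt
KLHL13 outer start: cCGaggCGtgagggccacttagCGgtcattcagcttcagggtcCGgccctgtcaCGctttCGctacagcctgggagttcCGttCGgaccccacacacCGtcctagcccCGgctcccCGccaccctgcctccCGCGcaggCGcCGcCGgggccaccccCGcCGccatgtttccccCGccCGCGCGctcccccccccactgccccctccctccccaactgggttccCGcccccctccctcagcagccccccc
The inner start is preceded by 1 CpG and the outer start by 23, beside a median of 11 over all promoters. The table gives 1 value per gene, so it does not say which start was used, and DNA methylation was not measured.

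Reads in the listed genes ranged from 10966349 to 12557974 per library. KMT5A, which checks the labels, had 1191, 1212 and 1255 normalized reads in the controls and 880, 933 and 939 in the knockouts (log2 fold change -0.41, SE 0.07, adjusted p = 5.65e-05), so its mRNA was lower but present in every knockout library. Of 11 markers of the line, 10 were listed, with summed values of 95389 to 98410 in the controls and 71291 to 72890 in the knockouts. Of these, 4 were lower (KIT, MPO, PTPRC and SPN), 4 were higher (ANPEP, CD33, CD4 and RUNX1), and CD34 and RUNX1T1 were not called. KIT (mean 60704 in the controls and 43551 in the knockouts) and MPO (12254.5 and 1541) made up most of the sums, which thus mainly follow these genes. The 4 listed of 6 neutrophil granule and lineage markers (AZU1, CEBPE, ELANE and PRTN3) were all higher, with a sum of 279 to 346 in the controls and 2584 to 2693 in the knockouts. MPO, also a granule protein gene, was placed in the list of the line and was lower (log2 fold change -2.99), so granule genes did not share a direction. The sum of the 3 listed of 7 monocyte markers went from 113 to 189 in the controls to 201 to 246 in the knockouts, with LYZ and CSF1R higher and VCAN lower. That of the 4 listed of 5 B-cell markers went from 964 to 1203 to 1938 to 2101. LYZ, VCAN and the neutrophil marker ELANE passed the mean of 10 needed for a test only through the group where they were higher. Their calls had to come out this way and are not read. Of the other marker lists, ITGA2B (megakaryocytes) was lower, and CD3D (T cells) and EPCAM (epithelium) were higher. The part of these marker changes in the results on E3 ligases was not tested. In bulk RNA, fewer cells of a type and less RNA per cell cannot be told apart.

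More of the E3 ligase and adaptor genes fell in the knockout than rose. After the removal of KLHL34, SOCS1 and TRIM67, whose mean was below 10 normalized reads, 144 were tested with limma-trend, a linear model fitted over all 7516 listed genes with that mean. A gene was called where the p-value, Benjamini-Hochberg adjusted over 19860 genes, was below 0.05. The knockout was lower for 89 members and higher for 48, and 7 were not called. The share lower was 61.8%, where 46.7% of all tested genes were lower, and the share higher was 33.3%, where 47.3% of all tested genes were higher. These shares of all tested genes are the background for each family and list below, except where another background is given. In the authors' deposited table the largest unadjusted p for this same contrast was 0.049998, so that 94.1% of all tested genes were called here, and nothing is read from the number of members called. The direction is what differs: the median log2 fold change was -0.33 over the members, 0.14 over all tested genes and 0.16 over the listed protein-coding genes. Few genes in a table limited by p lie near 0, so a median can change sign with a small change in the shares. The medians here and below thus describe direction and not the size of a shift. The members' median was alike in the 3 knockout libraries, at -0.31, -0.31 and -0.35 relative to the control means. Each log2 fold change sets knockout against control on log2(normalized reads + 1), and ± after it is the standard error with 3 libraries per group.

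Large changes were few. Of the members that fell, 17 had a log2 fold change of -1 or below (11.8%; 10.7% of all tested genes), and of those that rose 3 reached 1 or more (2.08%; 8.34% of all tested genes). The 17 were KLHL13, RNF152, KCTD8, KLHL33, KLHL24, RNF24, RNF157, TRIM8, KLHL3, RNF150, KLHL6, TRIM16, RNF20, TRIM16L, RNF144A, KCTD1 and KLHL11, and the 3 were RNF144B, FBXW9 and RNF125. KLHL33 and RNF144B passed the filter on low values only through the group where they were higher, so that their calls had to come out this way. The groups did not overlap for 141 of 144 members, where 95.4% of all tested genes did not overlap. Since the table was chosen by p in this contrast, separated groups are given below as a description and not as support. The exceptions were CUL7, BTBD8 and DCAF8.

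**Figure D1:**
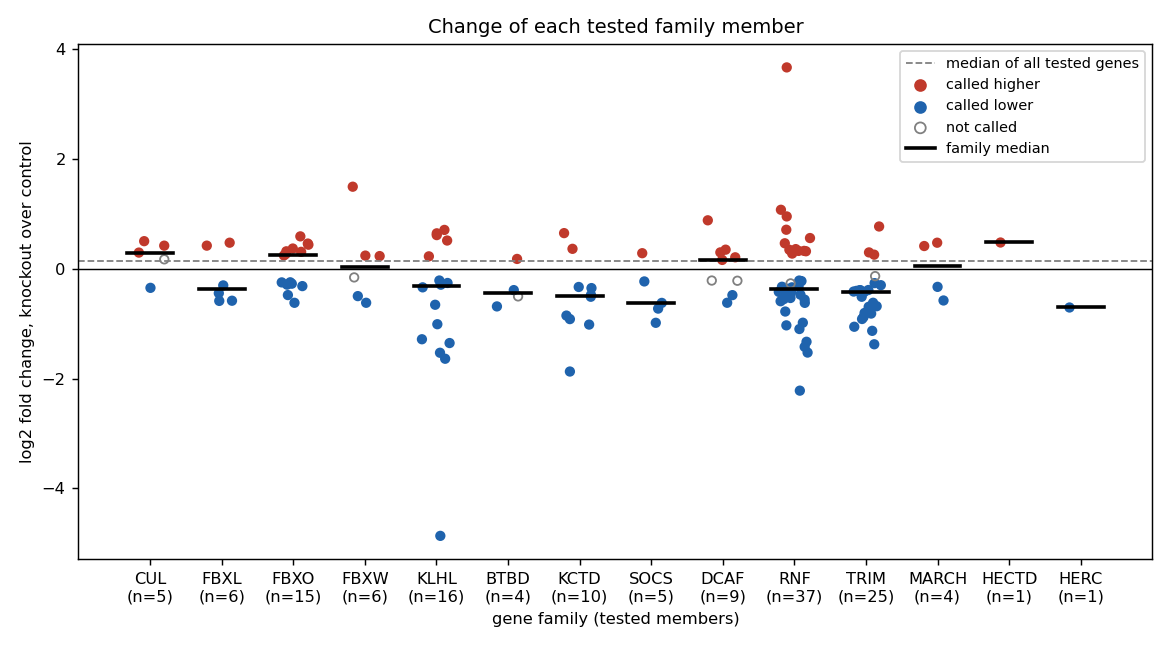
Log2 fold change (knockout over control, vertical axis) of each tested member, 1 point per gene, grouped by family on the horizontal axis, red where called higher, blue where called lower and open where not called. Black bars are family medians and the dashed line is the median of all tested genes. Of the 25 TRIM genes 22 lie below 0, while the 27 F-box genes (FBXL, FBXO and FBXW) are spread on both sides, 14 of them below 0.

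**Figure D2:**
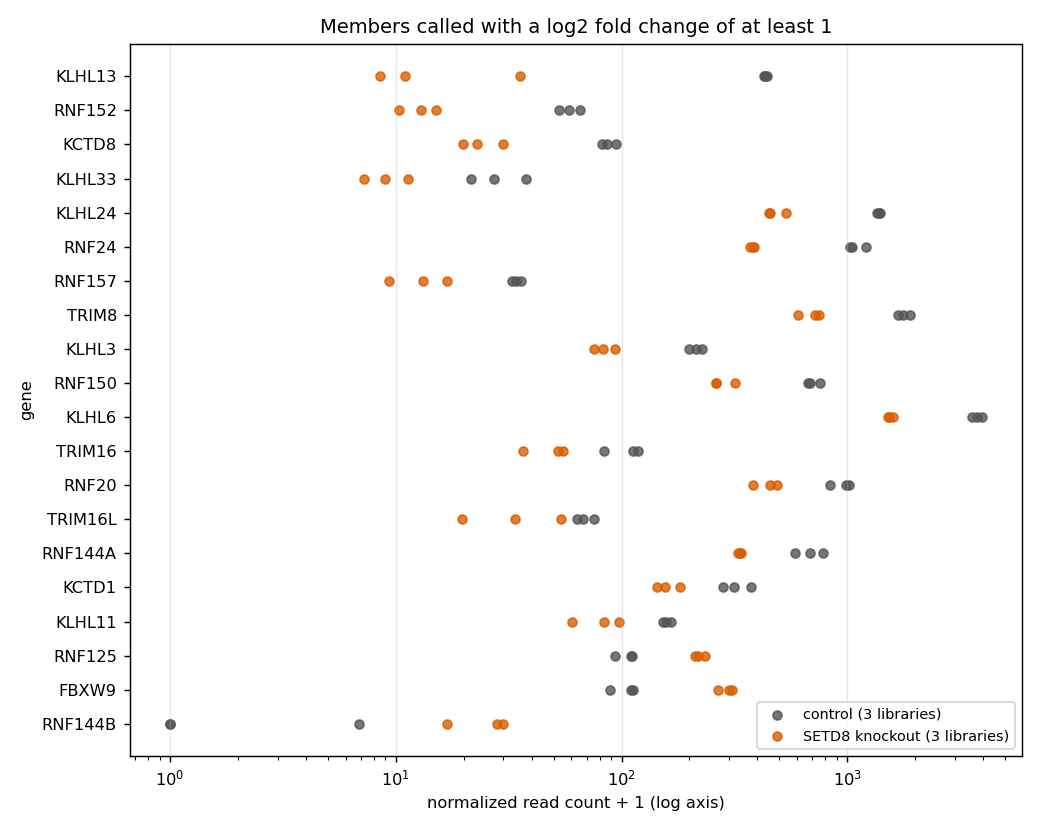
Normalized read count + 1 (log axis) of the 20 called members whose log2 fold change is 1 or more in either direction, 1 point per library, 3 control and 3 SETD8 knockout libraries. The groups are apart for all 20 genes, as for 95.4% of all tested genes, and 17 of the 20 are lower in the knockout.

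Of the cullin scaffolds, 5 of 8 annotated genes were listed: 3 rose, 1 fell and 1 was not called (median log2 fold change 0.30). CUL3, the scaffold for BTB adaptors, had 702, 642 and 668 normalized reads in the controls and 938, 964 and 952 in the knockouts (log2 fold change 0.51 ± 0.08). CUL4A and CUL4B, paralogous scaffolds for DCAF receptors, moved apart. CUL4A had 1792, 1874 and 1785 normalized reads in the controls and 2339.9, 2470.5 and 2503 in the knockouts (log2 fold change 0.42 ± 0.06), and every knockout library lay above every control. CUL4B had 1953, 1750.0 and 1945 normalized reads in the controls and 1485, 1555 and 1404 in the knockouts (log2 fold change -0.35 ± 0.07), with every knockout below every control. Their adjusted p-values were 1.35e-05, 4.8e-06 and 0.000227.

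The CUL4A share of the summed CUL4A and CUL4B normalized reads, not corrected for length, was 47.9%, 51.7% and 47.8% in the controls and 61.2%, 61.4% and 64.1% in the knockouts. The sum itself was 3745, 3625 and 3730 in the controls and 3825, 4025 and 3906 in the knockouts. The shares of the groups had to be apart, since every knockout lay above the controls for CUL4A and below them for CUL4B. Every knockout sum was slightly above every control sum. The genes around CUL4B were higher on average and those around CUL4A lower, each the opposite of the gene itself. The median log2 fold change of the tested genes outside these families that start within 5 Mb was 0.53 and -0.22.

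CUL5, the scaffold for most SOCS-box adaptors, had 1151, 984 and 1060.3 normalized reads in the controls and 1153, 1252 and 1195 in the knockouts (log2 fold change 0.17 ± 0.07) and was not called (adjusted p = 0.0763). CUL7, the scaffold that pairs with FBXW8, had 747, 707 and 657 normalized reads in the controls and 712, 958 and 944 in the knockouts (log2 fold change 0.30 ± 0.10). Knockout 1 of CUL7 lay among the controls. CUL7 was called (adjusted p = 0.0216) but not without control 2, control 3, knockout 2 or knockout 3, where the adjusted p was 0.0537 to 0.165.

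**Figure D3:**
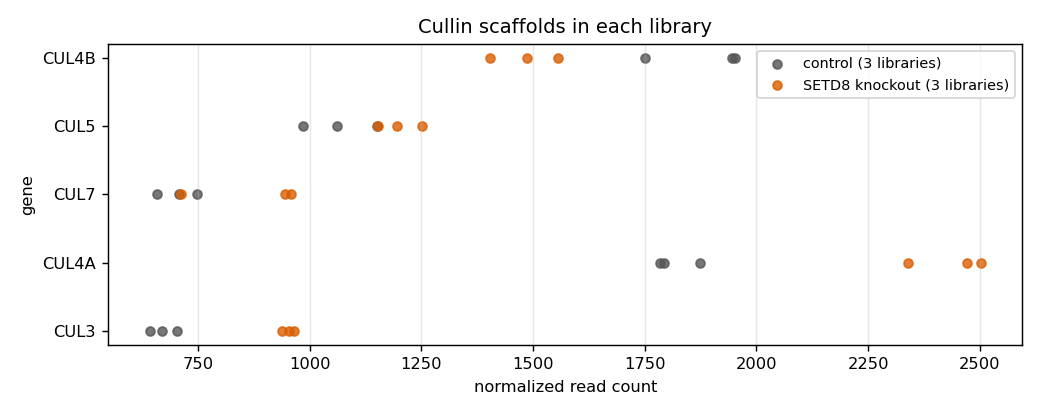
Normalized read count (horizontal axis) of the 5 listed cullin genes, 1 point per library, 3 control and 3 SETD8 knockout libraries. CUL3 and CUL4A lie higher and CUL4B lower in all 3 knockout libraries, and the groups of CUL7 overlap.

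The F-box genes, the substrate adaptors of CUL1, were evenly divided: of 62 annotated genes 27 were listed, 13 rose, 13 fell and 1 was not called (median log2 fold change -0.16). With TMM or upper-quartile scaling 10 rose and 14 fell. The subgroups are named by what lies beside the F-box: leucine-rich repeats (FBXL), WD40 repeats (FBXW) or another or no known domain (FBXO). Of 6 FBXL genes 4 fell and 2 rose. FBXL4, whose protein sits in mitochondria and is mutated in a mitochondrial DNA depletion syndrome, had 665, 693 and 732 normalized reads in the controls and 497, 422 and 481 in the knockouts (log2 fold change -0.58 ± 0.09). FBXL5, the iron-sensing adaptor for the iron regulatory protein IRP2, had 631, 662 and 589 in the controls against 413, 492 and 482 in the knockouts (log2 fold change -0.44 ± 0.10). All knockout libraries of both genes were below all controls.

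FBXL20 had 1281, 1168 and 1211 normalized reads in the controls and 1105, 962 and 911 in the knockouts (log2 fold change -0.30 ± 0.08). The FBXL genes that rose were FBXL6, with 298, 377 and 368 normalized reads in the controls and 501, 515 and 433 in the knockouts (log2 fold change 0.48 ± 0.11), and FBXL15, an adaptor for the ligase SMURF1. FBXL15 had 116, 118 and 132 in the controls against 177, 157 and 158 in the knockouts (log2 fold change 0.42 ± 0.16). Both overlap opposite-strand genes, which makes their values uncertain if the counting did not use strand, FBXL6 over 31.7% of its exon bases (SLC52A2) and FBXL15 over 27.7% (PSD). FBXL15 was close to the threshold (adjusted p = 0.0435) and was not called when any of the 6 libraries was left out, with adjusted p-values of 0.0501 to 0.147.

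The FBXW genes held the largest rise among F-box genes. FBXW9 (chr19:12688053-12696643) had 111, 109 and 88.2 normalized reads in the controls and 307, 267 and 299 in the knockouts (log2 fold change 1.50 ± 0.15), or 103 ± 12.7 (SD, n = 3) in the controls and 291 ± 21.3 (SD, n = 3) in the knockouts, 2.82-fold higher (adjusted p = 4.36e-08). Opposite-strand genes, GNG14 among them, cover 26.4% of its exon bases. FBXW11, one of the β-TrCP proteins that recognise phosphorylated β-catenin and IκB, had 1317, 1329 and 1320.0 in the controls against 1547, 1599 and 1547 in the knockouts (log2 fold change 0.24 ± 0.06). FBXW8, the F-box partner of CUL7, had 564, 683 and 609 in the controls against 763, 726 and 690.1 in the knockouts (log2 fold change 0.23 ± 0.09). The FBXW8 call (adjusted p = 0.0458) was lost without control 1, control 3, knockout 1 or knockout 2 (adjusted p = 0.113 to 0.231).

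FBXW2 and FBXW4 fell. FBXW2 had 2371, 2427 and 2186 normalized reads in the controls and 1532, 1469 and 1547 in the knockouts (log2 fold change -0.62 ± 0.06), and FBXW4 had 415, 452 and 401 in the controls against 306, 271 and 322 in the knockouts (log2 fold change -0.50 ± 0.11). Both stand among genes that were lower on average, with neighbour medians of -0.70 and -0.66. FBXW5 had 1575, 1486 and 1568 in the controls against 1334, 1454 and 1369 in the knockouts (log2 fold change -0.16 ± 0.07) and was not called (adjusted p = 0.0728).

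Of the 15 FBXO genes 8 rose and 7 fell, none by a log2 fold change of 1. FBXO9 led the rises, with 1048, 995 and 1003 normalized reads in the controls and 1436, 1550.0 and 1613 in the knockouts (log2 fold change 0.59 ± 0.07). FBXO10, an adaptor reported to target BCL2, had 140.0, 127 and 153 in the controls against 183, 203 and 192 in the knockouts (log2 fold change 0.46 ± 0.15). FBXO21 had 486, 576 and 519 in the controls against 694, 772 and 679.8 in the knockouts (log2 fold change 0.44 ± 0.09). FBXO43, also called EMI2, holds eggs in meiosis by inhibiting the anaphase-promoting complex, and it had 283, 304 and 301 in the controls against 359, 379 and 414 in the knockouts (log2 fold change 0.37 ± 0.11). FBXO10 shares 62.3% of its 75-base stretches with the overlapping gene AL513165.2, so its value is uncertain. It was not called without control 2 or knockout 2 (adjusted p = 0.0835 and 0.0793), and FBXO43 was not called without knockout 3 (adjusted p = 0.0595).

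Among the FBXO genes that fell, FBXO48 had 124, 114 and 131 normalized reads in the controls and 90.7, 71.5 and 77.5 in the knockouts (log2 fold change -0.62 ± 0.19). FBXO8, which also carries a Sec7 domain, had 224, 178 and 191 in the controls against 133, 171 and 123 in the knockouts (log2 fold change -0.48 ± 0.16). FBXO30, known from muscle atrophy, had 1109.8, 1138 and 1084 in the controls against 915, 865 and 901 in the knockouts (log2 fold change -0.31 ± 0.07). FBXO7, a Parkinson disease gene that acts in mitophagy, had 1897, 1789.9 and 1892 in the controls against 1522, 1612 and 1442 in the knockouts (log2 fold change -0.29 ± 0.06). The last pair had the smaller changes but the tighter libraries, and kept their calls without any 1 library. FBXO48 was not called without control 3 or knockout 2 (adjusted p = 0.0566 and 0.0575), nor FBXO8 without control 1, control 3, knockout 1 or knockout 3 (adjusted p = 0.0528 to 0.136). The other FBXO genes were FBXO3 (0.27), FBXO4 (0.25), FBXO22 (0.32) and FBXO31 (0.31), which rose, and FBXO11 (-0.25), FBXO28 (-0.24) and FBXO42 (-0.27), which fell, by the log2 fold changes given. Of these 7, only FBXO22 was called without each of the 6 libraries in turn. For the other 6 the highest adjusted p was 0.0511 without control 2 (FBXO3), 0.298 without knockout 3 (FBXO4), 0.0693 without control 1 (FBXO31), 0.172 without control 3 (FBXO11), 0.151 without knockout 3 (FBXO28) and 0.0631 without knockout 2 (FBXO42).

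The KLHL genes, whose proteins join a BTB domain for CUL3 to a Kelch propeller for the substrate, mostly fell: 11 of 16 tested genes were lower and 5 were higher (median log2 fold change -0.31; 17 of 37 annotated genes listed). KLHL13 (chrX:117897813-118117340), which with KLHL9 and CUL3 moves the mitotic kinase Aurora B off chromosomes, had 429, 426 and 440.0 in the controls and 34.4, 9.93 and 7.47 in the knockouts. Its mean was 432 ± 7.39 (SD, n = 3) in the controls and 17.3 ± 14.9 (SD, n = 3) in the knockouts, 29.1-fold lower on the log2(value + 1) scale, and knockout 1 held several times the reads of the other knockouts. The log2 fold change was -4.86 ± 0.34 (adjusted p = 1.08e-10), while the tested genes outside these families within 5 Mb were higher, with a median of 0.64. KLHL9, its partner, had 737, 755 and 714 in the controls against 575, 593 and 579 in the knockouts (log2 fold change -0.34 ± 0.08). The neighbours of KLHL9 were lower still (median -0.65), and with their trend removed it was called higher (0.31).

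KLHL24 and KLHL6 lie 148 kb apart on chromosome 3, by their first coordinates, and both fell. KLHL24 (chr3:183635568-183684477), a ligase adaptor for intermediate filament keratins, had 1398, 1383 and 1349.7 normalized reads in the controls and 452, 449.8 and 532 in the knockouts (log2 fold change -1.53 ± 0.08). KLHL6 (chr3:183487531-183555689), an adaptor needed for germinal centre B cells, had 3752, 3950.2 and 3580.4 in the controls against 1513, 1532 and 1590.3 in the knockouts (log2 fold change -1.28 ± 0.06). KLHL3, the adaptor that targets WNK kinases and is mutated in a form of familial hypertension, had 226, 214 and 198 in the controls against 92.8, 81.4 and 74.7 in the knockouts (log2 fold change -1.35 ± 0.17). Adjusted p-values of the 3 genes were 1.64e-12, 1.26e-13 and 7.83e-07, and no library of one group reached the other. The neighbour median of KLHL24 and KLHL6 was -0.33, smaller in size than either change. KLHL33 and KLHL11 also fell past a log2 fold change of -1 (-1.64 and -1.01), KLHL33 at a low level, with 20.4, 26.3 and 36.7 in the controls and 6.25, 7.94 and 10.3 in the knockouts.

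Of the 5 KLHL genes that rose, KLHL21, which with CUL3 brings Aurora B to the spindle midzone, had 857, 947 and 973 normalized reads in the controls and 1407, 1566 and 1573 in the knockouts (log2 fold change 0.71 ± 0.07). KLHL18, an adaptor for the kinase Aurora A, had 576, 579 and 689 in the controls against 896, 1033 and 958 in the knockouts (log2 fold change 0.65 ± 0.09). KLHL35 had 522, 606 and 562 in the controls against 771, 897 and 926 in the knockouts (log2 fold change 0.62 ± 0.09), and KLHL17, a neuronal actin-binding protein, had 125, 127 and 138 in the controls against 163, 212 and 187 in the knockouts (log2 fold change 0.52 ± 0.16). The KLHL adaptors of the Aurora kinases thus did not share a direction: KLHL13 fell, KLHL18 and KLHL21 rose, and KLHL9 fell only where the neighbour trend was kept. KLHL17 was not called without knockout 2 (adjusted p = 0.0927). KLHL8 rose (0.23), and KLHL12 (-0.26), KLHL15 (-0.21), KLHL5 (-0.29) and KLHL28 (-0.65) fell. KLHL12, which with CUL3 modifies the vesicle coat protein SEC31, was not called without control 2 or knockout 3 (adjusted p = 0.0826 and 0.0655). KLHL8 and KLHL15 lost their calls in 5 of the 6 omissions, up to 0.209 without knockout 3 and 0.133 without knockout 1.

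KCTD proteins carry a BTB domain and form rings, some as CUL3 adaptors and some as partners of receptors and channels. Of 10 tested genes 8 fell and 2 rose (median log2 fold change -0.49; 21 annotated). KCTD8, an auxiliary subunit of GABA-B receptors, had 84.8, 80.7 and 93.2 normalized reads in the controls and 18.8, 21.8 and 28.9 in the knockouts (log2 fold change -1.87 ± 0.28). KCTD1, known to repress AP-2 transcription factors, had 282, 314 and 373 in the controls against 180.3, 155 and 142 in the knockouts (log2 fold change -1.01 ± 0.14). KCTD11, an adaptor that restrains Hedgehog signalling by way of a histone deacetylase, had 154, 168 and 129 in the controls against 79.2, 74.5 and 83.1 in the knockouts (log2 fold change -0.91 ± 0.18). KCTD13, an adaptor for the small GTPase RhoA, had 359.7, 402 and 359 in the controls against 231, 211 and 180.2 in the knockouts (log2 fold change -0.85 ± 0.13). The groups were apart for all 4 genes, as for 95.4% of all tested genes, and adjusted p-values ran from 4.88e-06 (KCTD1) to 0.000329 (KCTD11). KCTD8, KCTD1 and KCTD13 stand among lower neighbours (medians -0.23, -0.30 and -0.71) and KCTD11 among higher ones (0.32). With the neighbour trend removed only KCTD13 was not called (-0.14).

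Only KCTD3 and KCTD20 rose among the tested KCTD genes. KCTD3 had 605, 599 and 641 normalized reads in the controls and 979.7, 972 and 948 in the knockouts (log2 fold change 0.65 ± 0.08), and KCTD20 had 2532, 2533 and 2576 in the controls against 3315, 3168 and 3365 in the knockouts (log2 fold change 0.37 ± 0.06). KCTD2 (-0.51), KCTD5 (-0.47), KCTD18 (-0.35) and KCTD12 (-0.33), another GABA-B receptor subunit, fell by the log2 fold changes given. KCTD18 and KCTD12 lost their calls without certain libraries, with the highest adjusted p without control 1 for both (0.136 and 0.245). KCTD2 and KCTD5, close paralogues, stand on chromosomes 17 and 16 among genes with medians of -0.54 and -0.49, about their own changes.

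Of 4 BTBD genes, which also carry BTB domains, 2 fell, 1 rose and 1 was not called (median log2 fold change -0.44). BTBD3, which orients dendrites in the developing cortex, had 705, 625 and 635 normalized reads in the controls and 507, 529 and 467 in the knockouts (log2 fold change -0.39 ± 0.09). BTBD19 had 150.2, 149.7 and 113 in the controls against 89.6, 90.4 and 74.7 in the knockouts (log2 fold change -0.68 ± 0.19). BTBD8 had 167, 132 and 118 in the controls against 78.2, 123 and 94.3 in the knockouts (log2 fold change -0.50 ± 0.20), where knockout 2 lay among the controls and the gene was not called (adjusted p = 0.0556). BTBD2 had 1776, 2028 and 2166 in the controls against 2175, 2264 and 2311 in the knockouts (log2 fold change 0.18 ± 0.07). Its call (adjusted p = 0.0437) was lost without control 1, control 2, knockout 2 or knockout 3, up to 0.358 without control 1.

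The SOCS proteins are feedback inhibitors of cytokine receptors that use a SOCS box to join a ligase and an SH2 domain to bind phosphotyrosine. Of 5 tested genes 4 fell and 1 rose (median log2 fold change -0.62; 6 of 7 annotated genes listed). SOCS7 had 1037, 1236 and 1103 normalized reads in the controls and 500.3, 651 and 561 in the knockouts (log2 fold change -0.98 ± 0.09). SOCS5 had 711, 747 and 698 in the controls against 461, 443 and 499.6 in the knockouts (log2 fold change -0.62 ± 0.09), and SOCS3, the inhibitor of IL-6 and G-CSF receptor signalling, had 103, 109.9 and 117 in the controls against 66.7, 64.5 and 67.2 in the knockouts (log2 fold change -0.72 ± 0.20). Adjusted p-values of these 3 genes were 1.73e-08, 5.89e-06 and 0.0055, and every knockout library was below every control. Their neighbours were lower as well, with medians of -0.50, -0.52 and -0.41.

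SOCS2, the inhibitor of growth hormone signalling, had 539, 549 and 554 normalized reads in the controls and 684, 694 and 627 in the knockouts (log2 fold change 0.29 ± 0.09) and rose, but not without knockout 2 (adjusted p = 0.0631). SOCS4 had 1208, 1035 and 1016 in the controls against 956, 956 and 864 in the knockouts (log2 fold change -0.23 ± 0.08). It was called (adjusted p = 0.0288), but not without control 1 or knockout 3 (adjusted p = 0.218 and 0.131). SOCS1, the inhibitor of interferon and JAK signalling, was too low to test, with 18 reads over the controls and 1 over the knockouts, which gives a ratio of 18.1 (exact 95% binomial interval 2.86 to 755). The controls of SOCS1 had 2.04, 3.89 and 11.9 normalized reads, so control 3 held most of them. The motif TTCNNNGAA, a STAT core searched on both strands, was in 0 of the 4 promoters of the 3 SOCS genes with an entry, in 5 of the 156 promoters of members (3.21%) and in 7.66% of all promoters.

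Genes that act in the same pathway as the SOCS proteins went both ways. Of 43 JAK-STAT genes written down, 24 were tested, of which 11 rose and 13 fell (median log2 fold change -0.35). These are 45.8% and 54.2%, beside 47.3% and 46.7% of all tested genes. The largest falls were of BCL6, a transcriptional repressor (-3.62), and PIM1, a kinase whose gene is a STAT5 target (-1.55). The largest rises were of the receptor chains IL7R (1.22) and IFNGR2 (1.10). STAT3 (-0.81), STAT5A (-0.60) and STAT5B (-0.87) fell, STAT2 (0.38) and STAT6 (0.40) rose, and CISH, the remaining SOCS-family inhibitor, fell (-0.57).

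DCAF proteins are WD40-repeat substrate receptors of CUL4, and they had no stable direction: 5 of 9 tested genes rose and 2 fell (median log2 fold change 0.16; 19 annotated), but with TMM scaling 4 rose and 4 fell, and with upper-quartile scaling 2 rose and 4 fell. Both scalings also gave fewer rises and more falls over all tested genes. DCAF13 (chr8:103414714-103443453), which also takes part in processing of the small-subunit ribosomal RNA, had 1198, 1106 and 1253 normalized reads in the controls and 2288, 2235 and 2048 in the knockouts (log2 fold change 0.89 ± 0.07). That is 1.85-fold higher (adjusted p = 5.57e-10). DCAF7, a scaffold for DYRK kinases, had 10018, 10058 and 9954 in the controls against 6204, 6661 and 6727 in the knockouts (log2 fold change -0.62 ± 0.05). The change of DCAF7 was near the median of its neighbours on chromosome 17, -0.67. DCAF10 had 1127, 1097 and 1043 in the controls against 798, 702 and 851 in the knockouts (log2 fold change -0.48 ± 0.08) and fell while its neighbours were higher, with a median of 0.24.

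DCAF6, a coactivator of nuclear receptors, had 1312, 1256 and 1227 normalized reads in the controls and 1761, 1555 and 1531 in the knockouts (log2 fold change 0.35 ± 0.07). DCAF4 had 263, 310.1 and 277 in the controls against 368, 339 and 339.9 in the knockouts (log2 fold change 0.30 ± 0.12). DCAF16, a substrate receptor of the nucleus known from covalent degrader compounds, had 1102, 962 and 968 in the controls against 1138, 1186 and 1179 in the knockouts (log2 fold change 0.21 ± 0.07), below the neighbour median of 0.77. DCAF4 was not called without any 1 of control 1, control 3 and the 3 knockouts (adjusted p = 0.0722 to 0.161). DCAF16 was not called without control 2, control 3, knockout 2 or knockout 3 (adjusted p = 0.0628 to 0.138), nor DCAF12 (0.16) without the controls or knockout 2 (up to 0.217). DCAF8 (-0.21, adjusted p = 0.0523) and DCAF17 (-0.22, adjusted p = 0.0644) were not called, and DCAF8 shares 53.0% of its 75-base stretches with AL139011.2.

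The genes of the cullin-RING core list, which has 33 genes and also holds the F-box protein SKP2, rose more often than they fell. Of these genes, which include those for neddylation and the COP9 signalosome, 19 were tested, and 14 rose and 5 fell (median log2 fold change 0.29). These are 73.7% and 26.3%, beside 47.3% and 46.7% of all tested genes. The largest rises were of SKP2 (0.94), the F-box protein for the cell-cycle inhibitor p27, and SKP1 (0.76), the link between CUL1 and the F-box. NEDD8, the modifier that activates cullins (0.71), ELOC, the link to SOCS boxes (0.63), the RING protein RBX1 (0.46) and DDB1, the link to DCAF proteins (0.29), also rose. DCUN1D3, a membrane-bound neddylation factor (-1.70), and GLMN, an RBX1 inhibitor (-0.57), fell. The genes near these 19 had a median of 0.28, and with the neighbour trend removed 6 of the 19 were higher and 3 lower. With that trend removed 30.0% of all tested genes were higher and 32.4% lower.

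Cullin receptors outside the named families fell more often than they rose: of 49 written down 29 were tested, 11 rose and 18 fell (median log2 fold change -0.39). The share lower was 62.1%, beside 46.7% of all tested genes, and the share higher 37.9%, beside 47.3%. With the neighbour trend removed 13 were lower and 7 higher (median -0.12), where 32.4% of all tested genes were lower and 30.0% higher. ASB2, a SOCS-box adaptor induced by retinoic acid in myeloid leukaemia cells, rose by 2.99 on the log2 scale, the largest rise of the list. RHOBTB3, a BTB protein with an ATPase domain, rose by 0.65, the next largest at a mean of at least 50. ZER1, a CUL2 adaptor (-0.94), and BTRC, the paralogue of FBXW11 (-0.88), fell.

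The RNF genes, the largest family here, mostly fell: 24 of 37 tested genes were lower, 12 were higher and 1 was not called (median log2 fold change -0.36; 88 annotated). The lower genes with the largest changes at a mean of at least 50 were RNF24, RNF150, RNF20 and RNF144A. RNF24 (chr20:3927309-4015582), a membrane-bound RING protein, had 1023, 1049 and 1209 normalized reads in the controls and 384, 380.3 and 372 in the knockouts (log2 fold change -1.52 ± 0.09). RNF150 had 666, 755 and 686 in the controls against 261, 262 and 317 in the knockouts (log2 fold change -1.33 ± 0.11). RNF20 (chr9:101533851-101563344), which with RNF40 ubiquitylates histone H2B on transcribed genes, had 1015, 983 and 836 in the controls against 455, 489 and 383 in the knockouts (log2 fold change -1.10 ± 0.10). RNF144A, a RING-between-RING ligase, had 585, 777 and 686 in the controls against 337, 333 and 326 in the knockouts (log2 fold change -1.03 ± 0.11). All knockout libraries of the 4 were below all controls, and adjusted p-values ran from 4.92e-12 (RNF24) to 4.87e-08 (RNF144A). The 4 stand among lower neighbours, with medians from -0.58 (RNF20) to -0.36 (RNF144A), and were still called lower with that trend removed.

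RNF40, the partner of RNF20, also fell. It had 1541, 1705 and 1647 normalized reads in the controls and 975, 1146 and 1137 in the knockouts (log2 fold change -0.59 ± 0.07). Opposite-strand genes cover 47.2% of its exon bases, and its neighbours on chromosome 16 had a median of -0.71. With their trend removed RNF40 stood at 0.12 and was not called. RNF2, the catalytic subunit of Polycomb repressive complex 1, also fell, with 845, 674 and 754 in the controls against 573, 497 and 533 in the knockouts (log2 fold change -0.50 ± 0.10). The neighbours of RNF2 had a median of -0.36, and with their trend removed it was not called (-0.14). RNF169, which binds ubiquitylated chromatin at DNA breaks, had 1603, 1630.5 and 1486 in the controls against 687, 839 and 876 in the knockouts (log2 fold change -0.98 ± 0.08), with XRRA1 over 27.9% of its exon bases on the other strand. RNF111, known as Arkadia and an amplifier of TGF-β signalling, had 1323, 1346 and 1444 in the controls against 1019, 911 and 1076 in the knockouts (log2 fold change -0.45 ± 0.07).

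RNF152, a lysosomal ligase that restrains mTORC1, fell, with 52.1, 57.4 and 64.4 in the controls and 9.38, 11.9 and 14.0 in the knockouts (log2 fold change -2.22 ± 0.34, adjusted p = 1.55e-05). RNF157 was lower from a low level (log2 fold change -1.42). RNF213, a very large ATPase and ligase and the susceptibility gene of moyamoya disease, had 7269.8, 7950.1 and 7913 in the controls against 4567, 6067 and 6916 in the knockouts (log2 fold change -0.42 ± 0.09). Its knockout libraries varied more than its controls, and it was not called with DESeq2 (adjusted p = 0.0616). Its neighbours had a median of -0.39, and with their trend removed it was not called (-0.013). RNF122 (-0.78), RNF214 (-0.62), RNF187 (-0.56), RNF41 (-0.55), RNF166 (-0.53) and RNF115 (-0.43) fell too, and of these 6 only RNF214 stands among lower neighbours (median -0.25).

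The higher RNF genes with the largest changes at a mean of at least 50 were RNF125, RNF175, RNF165 and RNF207. RNF125, a ligase for the RNA sensor RIG-I, had 93.0, 111 and 109 normalized reads in the controls and 235, 216 and 211 in the knockouts (log2 fold change 1.08 ± 0.16). RNF175 had 102, 113 and 113 in the controls against 194, 227 and 219 in the knockouts (log2 fold change 0.96 ± 0.16), and RNF165, a relative of RNF111, had 216, 213 and 228 in the controls against 384, 344 and 352 in the knockouts (log2 fold change 0.71 ± 0.12). RNF207, a cardiac protein that affects potassium channel levels, had 159, 179.9 and 137 in the controls against 243, 233 and 224 in the knockouts (log2 fold change 0.56 ± 0.15). RNF125 was 2.11-fold higher (adjusted p = 7.25e-06), and its neighbours had a median of -0.26. RNF165 also stands among lower neighbours (median -0.19).

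RNF144B, the paralogue of RNF144A, had 0, 5.83 and 0 in the controls and 27.1, 28.8 and 15.9 in the knockouts. That is 6 reads over the 3 controls and 72 over the 3 knockouts, which gives a ratio of 11.9 (exact 95% binomial interval 5.22 to 33.5, for counting error alone). Since RNF144B passed the filter on low values only through the knockouts, its call is not read. RNF19A and RNF19B, which are RING-between-RING paralogues too, had log2 fold changes of 0.33 and -0.47. RNF19B was not called without control 1 (adjusted p = 0.0752). RNF170 (-0.26, adjusted p = 0.0632) was the tested RNF gene not called. RNF5 (-0.22) and RNF113A (-0.34) lost their calls without certain libraries, at most to 0.102 without knockout 2 and 0.0656 without knockout 3.

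The TRIM genes, whose proteins join a RING, B-box and coiled coil, leaned furthest to one side among the families of more than 10 genes: 21 of 25 tested genes fell, 3 rose and 1 was not called (median log2 fold change -0.42; 80 annotated). Without them, 68 of the other 119 members were lower and 45 higher, with a median of -0.29. TRIM8 (chr10:102642310-102660680), a regulator of cytokine signalling and p53, had 1683, 1896 and 1773 normalized reads in the controls and 602, 719.9 and 748 in the knockouts (log2 fold change -1.37 ± 0.08). TRIM5, which binds retroviral capsids, had 121, 192 and 170.4 in the controls against 101, 66.5 and 92.4 in the knockouts (log2 fold change -0.88 ± 0.21). TRIM16 had 118, 82.6 and 111 in the controls against 54.2, 35.7 and 51.4 in the knockouts (log2 fold change -1.13 ± 0.24), and TRIM16L, its truncated relative, had 74.6, 62.2 and 66.4 in the controls against 53.2, 32.8 and 18.7 in the knockouts (log2 fold change -1.05 ± 0.32). Each knockout library of TRIM8 was below each control by a wide margin, while the nearest libraries of TRIM16L and TRIM5 lay close. The neighbours of TRIM8 were lower (median -0.67), and with their trend removed it was still called lower (-0.72). Those of TRIM5, TRIM16 and TRIM16L were higher (0.34, 0.31 and 0.31).

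TRIM16 and TRIM16L cannot be fully separated, since TRIM16 shares 51.1% of its 75-base stretches with TRIM16L and AC005324.3, and TRIM16L shares 30.2%. TRIM16L was called (adjusted p = 0.0109) but not without knockout 3 (adjusted p = 0.0855) or control 1 (adjusted p = 0.0569). The adjusted p was 8.46e-12 for TRIM8, 0.00151 for TRIM5 and 0.000582 for TRIM16.

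Several TRIM genes known from innate immunity, chosen after their values were seen, follow. TRIM25, a ligase that activates RIG-I, had 3281, 3451 and 3312 normalized reads in the controls and 2362, 2617 and 2571 in the knockouts (log2 fold change -0.41 ± 0.06). TRIM21, the cytosolic antibody receptor, had 467, 459.9 and 479 in the controls against 409.6, 391 and 374 in the knockouts (log2 fold change -0.26 ± 0.10). TRIM56, which promotes signalling from DNA and RNA sensors, had 1336, 1385 and 1388 in the controls against 931, 1034 and 1118 in the knockouts (log2 fold change -0.42 ± 0.07). TRIM38 (-0.51), TRIM26 (-0.30) and TRIM14 (-0.39) fell as well. TRIM25 and TRIM14 stand among lower neighbours (medians -0.62 and -0.61), and with the neighbour trend removed both were called higher (0.22 and 0.23). TRIM21 was near the threshold (adjusted p = 0.0435) and was called only without knockout 1 among the 6 omissions of 1 library, with other adjusted p-values up to 0.137. The 5 TRIM genes with the interferon motif in their promoter (TRIM14, TRIM16, TRIM21, TRIM26 and TRIM5) all fell, as did 16 of the other 20 tested, some of which had no promoter entry.

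Among TRIM genes with roles in the nucleus or in cell division, TRIM24, a reader of histone marks and a p53 ligase, had 5323, 5332 and 5335 normalized reads in the controls and 4024, 3920.2 and 4037 in the knockouts (log2 fold change -0.42 ± 0.05). TRIM37, which limits centriole duplication, had 843, 889.6 and 886 in the controls against 493, 493 and 514 in the knockouts (log2 fold change -0.80 ± 0.08). TRIM13, encoded in the 13q14 region often deleted in chronic lymphocytic leukaemia, had 1473, 1506 and 1753 in the controls against 1024, 1009.8 and 1041 in the knockouts (log2 fold change -0.62 ± 0.07). The libraries of each group lay close together for TRIM24 and TRIM37. TRIM24, TRIM37 and TRIM13 stand among lower neighbours (medians -0.29, -0.59 and -0.29). With the neighbour trend removed TRIM13 was still lower (-0.33), while TRIM24 (-0.13) and TRIM37 (-0.21) were not called. TRIM9 (-0.81), TRIM68 (-0.69), TRIM4 (-0.40), TRIM32 (-0.39) and TRIM11 (-0.38) fell also. TRIM46, TRIM36 and TRIM23 fell (-0.91, -0.68 and -0.40), but each lost its call in 2 to 5 omissions of 1 library, at most to 0.0798, 0.132 and 0.124, all without knockout 2.

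The 3 TRIM genes that rose were TRIM71, TRIM28 and TRIM41. TRIM71, an RNA-binding stem-cell protein repressed by let-7 microRNAs, had 383, 335 and 337 normalized reads in the controls and 602, 576 and 625 in the knockouts (log2 fold change 0.77 ± 0.10), 1.71-fold higher (adjusted p = 1.19e-06). TRIM28, the corepressor of KRAB zinc finger proteins, had 7526, 7964 and 8442 in the controls against 9165, 9821 and 9639 in the knockouts (log2 fold change 0.26 ± 0.06). TRIM41 had 731, 806 and 681 in the controls against 976, 864 and 889 in the knockouts (log2 fold change 0.30 ± 0.08). TRIM41 was not called without control 3 (adjusted p = 0.0548). TRIM28 and TRIM24, which belong to the same subfamily, moved in opposite directions. TRIM65 had 2478, 2694 and 2673 in the controls against 2464, 2377 and 2317 in the knockouts (log2 fold change -0.13 ± 0.06) and was not called (adjusted p = 0.0998).

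**Figure D4:**
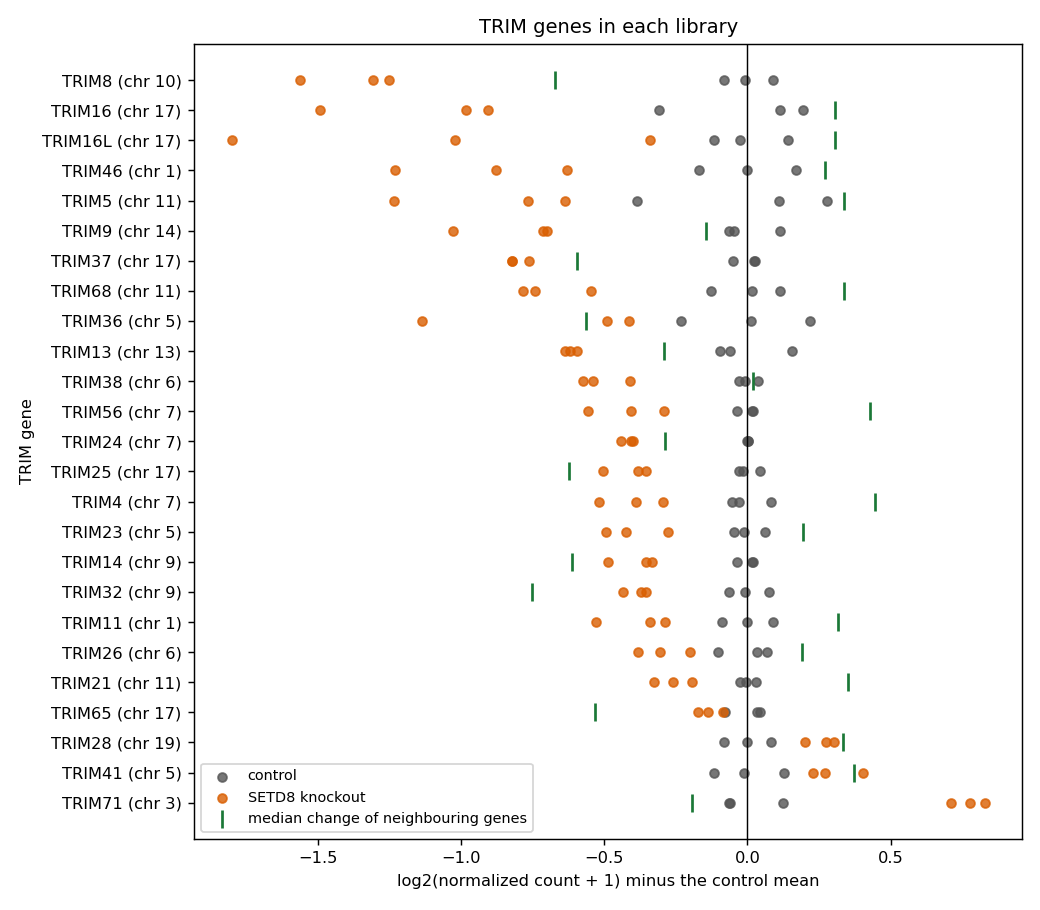
Log2(normalized count + 1) minus the control mean (horizontal axis) for each tested TRIM gene, 1 point per library, with a green mark for the median log2 fold change of the neighbouring genes. The knockout libraries of 22 of the 25 genes lie left of 0 on average, and 12 of these 22 have neighbours whose median is above 0.

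The 4 tested MARCH genes, membrane-bound ligases that act on surface and organelle proteins, were divided, with 2 higher and 2 lower. MARCH6, an endoplasmic reticulum ligase of cholesterol synthesis enzymes, had 7362, 6806 and 6814 normalized reads in the controls and 9147, 9166 and 9687 in the knockouts (log2 fold change 0.42 ± 0.06). MARCH1, which removes MHC class II and CD86 from the surface, had 159, 130.3 and 141 in the controls against 189.7, 195 and 215 in the knockouts (log2 fold change 0.48 ± 0.15). MARCH3 had 524, 402 and 469.7 in the controls against 345, 251 and 344 in the knockouts (log2 fold change -0.58 ± 0.13), and MARCH7 had 1798, 1929 and 1877 in the controls against 1582, 1419 and 1467 in the knockouts (log2 fold change -0.33 ± 0.07). MARCH1 was not called without control 2 or knockout 3 (adjusted p = 0.0709 without control 2). CD302 on the other strand covers 38.1% of the exon bases of MARCH7.

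A single gene of each HECT family was listed. HECTD3 had 372, 451 and 397 normalized reads in the controls and 534, 625 and 553 in the knockouts (log2 fold change 0.49 ± 0.10), and HERC3 had 806, 707 and 777 in the controls against 433, 479 and 512 in the knockouts (log2 fold change -0.69 ± 0.09). Both were called (adjusted p = 0.00054 and 2.5e-06). HERC3 fell while its neighbours were higher, with a median of 0.31. Among 80 other HECT, RING-between-RING and RING ligases written down, 50 were tested, and 15 rose, 33 fell and 2 were not called (median log2 fold change -0.29). The share higher was 30% and the share lower 66%, beside 47.3% and 46.7% of all tested genes. With the neighbour trend removed 12 were higher and 21 lower, where 30.0% of all tested genes were higher and 32.4% lower. PJA1 (1.25) and TRAF4 (0.81) rose most, and TRAF6, the ligase of interleukin-1 and Toll-like receptor signalling (-1.19), and RBCK1, a subunit of the linear ubiquitin ligase (-1.06), fell most.

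The members too low to test were counted in reads. KLHL34 had 0 reads over the controls and 12 over the knockouts, at least 3.97-fold higher against a floor of 3 counts over the control group. Its knockout libraries had 2.08, 9.93 and 0 normalized reads, so knockout 2 held most of them and knockout 3 was at 0 like the controls. TRIM67 had 57 reads over the controls and 2 over the knockouts, which gives a ratio of 28.7 (exact 95% binomial interval 7.59 to 243). These intervals and the floor cover counting error only.

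Levels between genes were compared per kilobase of exon. TRIM28 stood highest, at 1978 ± 114 in the controls and 2365 ± 84.0 in the knockouts (SD, n = 3) normalized reads per kilobase. DCAF7 was next in the controls, at 1522 ± 7.95 in the controls and 993 ± 43.4 in the knockouts, and RNF5, a small ligase of the endoplasmic reticulum, followed at 1431 ± 66.4 in the controls and 1228 ± 88.1 in the knockouts. In the knockouts RNF5 stood above DCAF7, and these levels are a description with no test.

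Where a member lies on the chromosome went along with its direction, as for other genes in these data. For each member the median log2 fold change of the tested non-members that start within 5 Mb was taken, over 6 to 114 genes (median 31.5). Where a neighbour trend is removed, the median subtracted is instead over all other tested genes within that distance, members included. The member had the sign of its neighbours in 92 of 144 cases (63.9%), and 64.9% of all tested genes did. Across the 144 members, which share the same 6 libraries, Spearman's rho between the member and its neighbours was 0.32 and Pearson's r was 0.18, beside a rho of 0.35 over all tested genes. On chromosome 17 all 14 members had a log2 fold change below 0, as did 75.3% of the other 534 tested genes there. None of the 4 members on chromosome 19 was below 0, where 32.5% of the other genes were.

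**Figure D5:**
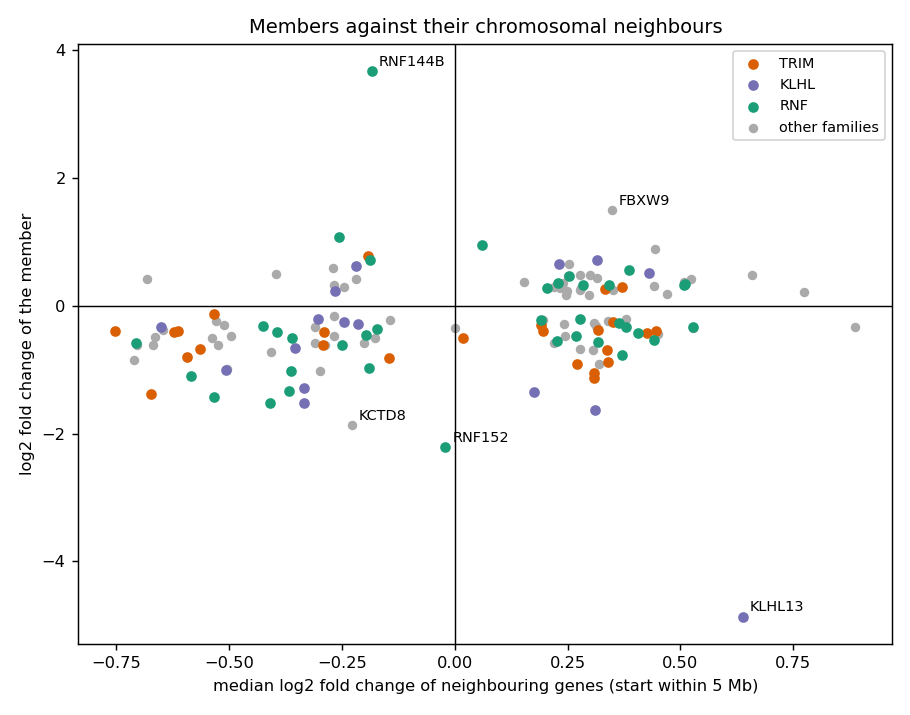
Log2 fold change of each tested member (vertical axis) against the median log2 fold change of the neighbouring genes that start within 5 Mb (horizontal axis), 1 point per gene. Of 144 members 92 share the sign of their neighbours, and 40 with a log2 fold change below 0 have neighbours whose median is above 0. Orange, purple and green points are TRIM, KLHL and RNF genes, and grey points the other families.

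Members that moved against their neighbours were counted by direction. Of the 144 members 40 had a log2 fold change below 0 and neighbours above 0 (27.8%; 21.4% of all tested genes) and 12 had the reverse (8.33%; 13.6% of all tested genes). Of the 40, TRIM genes were 12 and RNF genes 11. With the local trend of the neighbours subtracted from the knockout libraries, 60 members were lower (41.7%; 32.4% of all tested genes) and 28 higher (19.4%; 30.0% of all tested genes), and their median was -0.17. That subtraction moved the median of all tested genes by -0.14. The families then differed: 15 TRIM genes were lower and 5 higher (median -0.45), 19 RNF genes were lower and 5 higher (median -0.37), and KLHL genes were divided 5 to 5. SOCS genes had 1 lower and none higher, with a median of -0.10 in place of -0.62.

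The members were longer than most tested genes, with a median exon length of 6226.5 bases against 5086. Among the other listed protein-coding genes of the members' middle length range (4397 to 8077 bases, 2574 genes), 48.1% were lower, 46.2% were higher and the median log2 fold change was -0.16. For the range of the TRIM genes these values were 49.2%, 45.2% and -0.18 over 2935 genes. For the range of the RNF genes they were 47.0%, 47.1% and 0.12 over 2749 genes.

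Of the members, 10 share at least 20% of their exon bases with genes on the other strand, and 4 (DCAF8, FBXO10, TRIM16 and TRIM16L) share as much with a gene on the same strand or in 75-base stretches. The libraries were made with a strand-marking kit, but no source used here says whether the counting used strand. Among the 10, FBXO11 overlaps MSH6, RNF113A overlaps NDUFA1 and RNF214 overlaps BACE1. Values of these genes are uncertain to that extent.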

How the data were processed

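Polyadenylated RNA of 3 control and 3 SETD8 knockout libraries was selected on poly-T beads and prepared with a strand-marking NEBNext kit, per the labels' protocols. The build hg38, HISAT2 (a read aligner) and DESeq2 are named per the submitters' processing notes. Not given in the sources used here: tool versions and how reads were assigned to genes and strands. Per the file headers, the table has a normalized read count for each library, a signal that is never negative: reads divided by a size factor. The authors' own log2 fold change was deposited per gene, as were the authors' deposited p-values before and after adjustment, used here only to describe the table. Dividing by what 1 read is worth gave whole numbers, within 0.001, for 100% of values, but for control 3 and knockout 2 the step (0.991 and 0.993) is too near 1 to be told from rounding, so reads recovered there are less certain.

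The test was limma-trend (limma 3.58.1, R 4.3.3), two-sided, on log2(value + 1) over the 7516 listed genes with a mean of at least 10, with Benjamini-Hochberg adjustment over 19860 genes, the number behind the authors' adjustment. It was tested on simulated data. The members, lists and rules were chosen with earlier results of these data known. Values in every library are given for up to 4 called members in each direction per family (the most changed at a mean of 50 or more), and for tested members of families of 6 or fewer. A few genes are counted but their own values are not reported here. For each other list the 2 largest changes in each direction with a mean of at least 50 are named, and further genes were named for their role after their values were seen. Motifs and CpG were read from RefSeq promoters, and overlaps from GENCODE 29 on hg38, where all 147 members had the coordinates of the table. Alternatives were TMM and upper-quartile scaling, other filters and pseudocounts, a replicate block, leaving out each library, removal of the neighbour trend, and edgeR 4.0.16 and DESeq2 1.42.0 on recovered reads.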

Additional observations from a re-analysis of the deposited data

How the results depend on the processing

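The counts of 48 higher and 89 lower members stayed within 1.5 times under TMM scaling (42 and 93), upper-quartile scaling (39 and 95), edgeR's quasi-likelihood test (48 and 90), DESeq2 (43 and 87) and each omission of 1 library (37 to 44 and 76 to 84). Where a log2 fold change of 1 or more was required, 3 members were higher and 17 lower, beside 627 and 804 of all tested genes. Upper-quartile scaling moved the members' median to -0.39. Removing the neighbour trend left 28 members higher, with a median of -0.17, and 2252 of all tested genes higher. It turned the sign of 35 members, and the cause was not tested for any of them. They became 0.26 for BTBD3, -0.29 for BTBD2, -0.073 for CUL5, 0.054 for DCAF7, -0.13 for DCAF12, -0.53 for DCAF16, 0.22 for FBXL20, -0.18 for FBXL6, 0.28 for FBXO11, -0.033 for FBXO4, -0.0069 for FBXO3, -0.12 for FBXO31, -0.14 for FBXO43, 0.077 for FBXW2, 0.17 for FBXW4, 0.11 for FBXW5, -0.050 for FBXW8 and -0.11 for FBXW11. The others were 0.036 for KCTD2, 0.020 for KCTD5, 0.024 for KCTD12, 0.31 for KLHL9, 0.093 for KLHL15, -0.11 for MARCH6, 0.12 for RNF40, 0.10 for RNF114, -0.18 for RNF19A, -0.014 for RNF139, -0.15 for RNF126, 0.22 for TRIM25, 0.23 for TRIM14, 0.35 for TRIM32, 0.40 for TRIM65, -0.074 for TRIM28 and -0.071 for TRIM41. Without 1 library or another, 36 members lost their call and 0 reversed. The listed genes were chosen by p over these same 6 libraries, so a reversal was unlikely from the start and the 0 is not read. With the replicate number as a block, 45 members were higher and 87 lower. Same-numbered libraries showed no strong shared deviation (correlations of 0.0203, 0.00706 and -0.036). With 3 libraries per group this cannot exclude a weak pairing by number, and the labels state none. Depth limits the members below a mean of 10, and the table, chosen by p in this contrast, limits every count.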
